A study of Mus musculus with 12 samples.

Results

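The BCL2 family genes that set the balance between survival and death at the mitochondrion were followed in mouse macrophages given estradiol and in lung macrophages of pregnant mice. The set has 9 listed genes. The pro-survival genes are Bcl2, Bcl2l1 (encoding BCL-XL), Bcl2l2 (BCL-W) and Mcl1, and the pro-death genes are Bak1, Bid, Bad, Bcl2l11 (BIM) and Bnip3l. Members were taken as the array probe sets annotated to exactly 1 of these symbols, which gave 26 probe sets of 8 genes out of 12393 measured genes. Bnip3l is not analysed here, because its 3 probe sets are also annotated to the pseudogene Bnip3l-ps. The pro-survival side has 15 probe sets (Mcl1 6, Bcl2l1 4, Bcl2l2 4, Bcl2 1) and the pro-death side 11 (Bcl2l11 5, and 2 each for Bak1, Bid and Bad). The 12 samples, 3 in each of 4 groups, were run on Affymetrix expression arrays. The Estradiol group is RAW264.7 cells kept overnight with estradiol at 1 ug/mL, and the Unstimulated group is RAW264.7 cells that the series' design text describes as given vehicle. RAW264.7 is a macrophage-like line from a male mouse, a single established line. The Pregnant group is bronchoalveolar lavage macrophages (cells washed out of the airways and alveoli) of pregnant mice, and the Control group is lavage macrophages of control mice. Lavage cells went directly to RNA, per the design text, although the treatment field for estradiol is attached to every sample. The stage of pregnancy, the mouse strain and sex of controls, the vehicle and any sorting of the lavage cells are not given in the sources used here. The labels do not say that replicates are separate cultures or animals, so each p-value reflects the spread among the samples at hand and that spread may be technical.

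BCL2 family proteins decide whether the outer mitochondrial membrane stays closed. The pro-survival proteins BCL2, BCL-XL, BCL-W and MCL1 between them bind and hold the pore-forming protein BAK, encoded by Bak1, and its relative BAX. The BH3-only proteins BIM, BID and BAD are sensors of stress that bind the pro-survival proteins, and BIM and cleaved BID can also activate BAK directly. Once BAK opens the membrane, cytochrome c leaves the mitochondrion and caspases are activated. Much of this control acts on the proteins, through phosphorylation of BAD and BIM, cleavage of BID and rapid turnover of MCL1, which RNA does not report. In macrophages MCL1 is a well known survival factor.

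Promoter sequences are shown for the gene that passed the test with estradiol, Bcl2l1, and for Bid and Bcl2l11, the pro-death genes with the largest differences between lavage cells and the cell line. Each is the 250 bases upstream of a listed start site, 5′ to 3′ on the gene's strand, from RefSeq on build GRCm38.p6. Capitals mark matches, on either strand, to any of 6 motifs: GGTCA (estrogen receptor half-site), the full estrogen response element (the half-site, any 3 bases and the half-site's reverse complement, so that it contains the half-site), GTAAACA (forkhead), TTCNNNGAA (STAT), TGANTCA (AP-1) and GGGCGG (SP1).
Bcl2l1 start 1: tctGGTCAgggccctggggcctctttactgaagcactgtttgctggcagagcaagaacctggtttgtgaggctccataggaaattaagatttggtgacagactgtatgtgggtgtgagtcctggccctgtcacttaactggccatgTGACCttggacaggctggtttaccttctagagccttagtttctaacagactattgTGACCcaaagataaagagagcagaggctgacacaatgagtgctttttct
Bcl2l1 start 2: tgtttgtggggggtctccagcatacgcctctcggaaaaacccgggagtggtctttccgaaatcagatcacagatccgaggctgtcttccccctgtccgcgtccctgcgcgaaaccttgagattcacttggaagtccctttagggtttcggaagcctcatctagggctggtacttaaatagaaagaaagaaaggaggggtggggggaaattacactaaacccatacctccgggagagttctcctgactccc
Bcl2l1 start 3: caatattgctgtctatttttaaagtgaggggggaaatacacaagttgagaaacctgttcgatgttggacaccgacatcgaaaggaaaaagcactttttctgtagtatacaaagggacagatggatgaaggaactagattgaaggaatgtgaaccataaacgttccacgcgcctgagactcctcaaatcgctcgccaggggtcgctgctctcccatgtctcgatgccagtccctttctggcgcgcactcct
Bcl2l11 start 1: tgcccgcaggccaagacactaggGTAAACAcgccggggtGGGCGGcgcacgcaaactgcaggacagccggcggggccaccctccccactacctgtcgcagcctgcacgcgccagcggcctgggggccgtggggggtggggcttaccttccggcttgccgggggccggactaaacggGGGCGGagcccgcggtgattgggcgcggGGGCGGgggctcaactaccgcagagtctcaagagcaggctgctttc
Bcl2l11 start 2: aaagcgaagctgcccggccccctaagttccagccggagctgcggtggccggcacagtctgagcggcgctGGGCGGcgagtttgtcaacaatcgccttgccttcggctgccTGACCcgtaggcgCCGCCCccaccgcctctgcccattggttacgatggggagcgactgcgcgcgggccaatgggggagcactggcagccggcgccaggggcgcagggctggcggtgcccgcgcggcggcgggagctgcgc
Bid: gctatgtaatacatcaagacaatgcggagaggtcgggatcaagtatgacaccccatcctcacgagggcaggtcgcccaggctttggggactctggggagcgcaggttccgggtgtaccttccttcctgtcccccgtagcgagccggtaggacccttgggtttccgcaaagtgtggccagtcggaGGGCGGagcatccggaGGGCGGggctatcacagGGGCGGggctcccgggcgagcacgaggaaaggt
By position, Bcl2l1 start 1 is chr2:152828490-152828739 (minus strand), Bcl2l1 start 2 is chr2:152830718-152830967 (minus strand), Bcl2l1 start 3 is chr2:152831729-152831978 (minus strand), Bcl2l11 start 1 is chr2:128125788-128126037 (plus strand), Bcl2l11 start 2 is chr2:128127325-128127574 (plus strand) and Bid is chr6:120916825-120917074 (minus strand).
Bcl2l1 start 1 has 3 GGTCA matches, beginning 247, 104 and 49 bases before the start, whereas the other two listed Bcl2l1 promoters have no capitals. Bid has 3 GGGCGG matches, beginning 66, 50 and 33 bases before the start, and Bcl2l11 start 1 holds the GTAAACA match, 227 bases before the start. All 8 genes were matched, to 12 promoters. GGTCA was found in 5 of these 12, and 35.2% of the 32851 promoters in the table hold it. GGGCGG was found in 7 of 12, against 32.7% of all promoters, and GTAAACA in 1 of 12, against 3.17%. The full estrogen response element, the STAT motif and the AP-1 motif were in 0 of the 12, against 0.0639%, 7.02% and 6.75% of all promoters. These matches describe letters only, and the arrays do not tell which start site was used.

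Levels below are log2(intensity + 1) of a probe set, and a change is a difference of mean log2 levels, with the standard error and the adjusted p of a limma test fitted on all 22626 probe sets that are not controls. A probe set was called at an adjusted p under 0.05. As a marker of dim signal, the 40th percentile of each array was used, which lay between 6.98 and 7.14. Of the 26 member probe sets, 19 were above it on all 12 arrays and 2 on none, namely Bcl2l1 1426050_at and Bcl2l2 1451029_at. Probe sets ending in _s_at or _x_at can also match other transcripts, and 3 of the 6 Mcl1 probe sets are of this kind. The array medians lay between 369 and 393 in intensity. Estradiol replicate 2 stood apart in RNA quality: the 3′ minus 5′ difference of its transferrin receptor control was 4.31, with the remaining RAW264.7 arrays at 3.16 to 3.43, and that of actin 0.74, with the remaining ones at 0.39 to 0.48. Changes without this array are given beside the member values that it moves most. Of 14 macrophage markers all 11 measured were above the 40th percentile on every lavage array, and 7 of the 11 on every RAW264.7 array. The summed intensity of 12 measured T cell markers was 1643 to 1818 in Estradiol cells, against 2848 to 3395 in Unstimulated cells, with only Cd28 of the 12 above the percentile on every array of both groups. That of 9 neutrophil markers was 728 to 751 in Estradiol cells, against 487 to 536 in Unstimulated cells, and that of 9 B cell markers was 572 to 583 in Estradiol cells, against 755 to 863 in Unstimulated cells. Of the B cell markers only Ighm was above the percentile on every array of both groups (mean 8.15 in Estradiol and 9.01 in Unstimulated cells). The part of these markers in the estradiol results was not tested.

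Estradiol was accompanied by a higher level of 1 member, Bcl2l1, and by no called change among the others. Bcl2l1 encodes BCL-XL, which sequesters BIM, BID and BAK. Its probe set 1420888_at read 10.33, 10.23 and 10.36 in Estradiol cells, against 9.97, 9.96 and 9.86 in Unstimulated cells. All 3 Estradiol arrays were above all 3 Unstimulated arrays. The difference was 0.38 ± 0.06 (SE; 95% interval 0.23 to 0.52), or 1.30-fold, with a limma adjusted p of 0.0134. Among all probe sets tested 5.10% rose and 4.17% fell, so 9.27% were called in either direction, against 1 of the 26 members. The adjusted p passed the threshold in the fit of all arrays but not when Unstimulated replicate 1 (0.0516), 2 (0.0541) or 3 (0.0642) or Estradiol replicate 3 (0.0561) was left out. The change itself was 0.34 to 0.40 in those fits.

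The other Bcl2l1 probe sets turned on Estradiol replicate 2. Probe set 1426191_a_at read 10.71, 9.14 and 10.64 in Estradiol cells, against 9.94, 10.20 and 10.19 in Unstimulated cells. Probe set 1420887_a_at read 10.20, 9.22 and 10.24 in Estradiol cells, against 9.48, 9.66 and 9.67 in Unstimulated cells. On both, Estradiol replicates 1 and 3 were above every Unstimulated array and Estradiol replicate 2 below every one. The changes were 0.06 ± 0.40 (limma adjusted p = 0.946) and 0.28 ± 0.27 (adjusted p = 0.56). Without Estradiol replicate 2 they were 0.57 ± 0.09 (adjusted p = 0.0191) and 0.62 ± 0.07 (adjusted p = 0.00725). The array with the largest 3′ minus 5′ differences is the one that is low here, and the part of RNA quality in these values was not tested. The fourth Bcl2l1 probe set, 1426050_at, was dim on all 12 arrays.

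**Figure D1:**
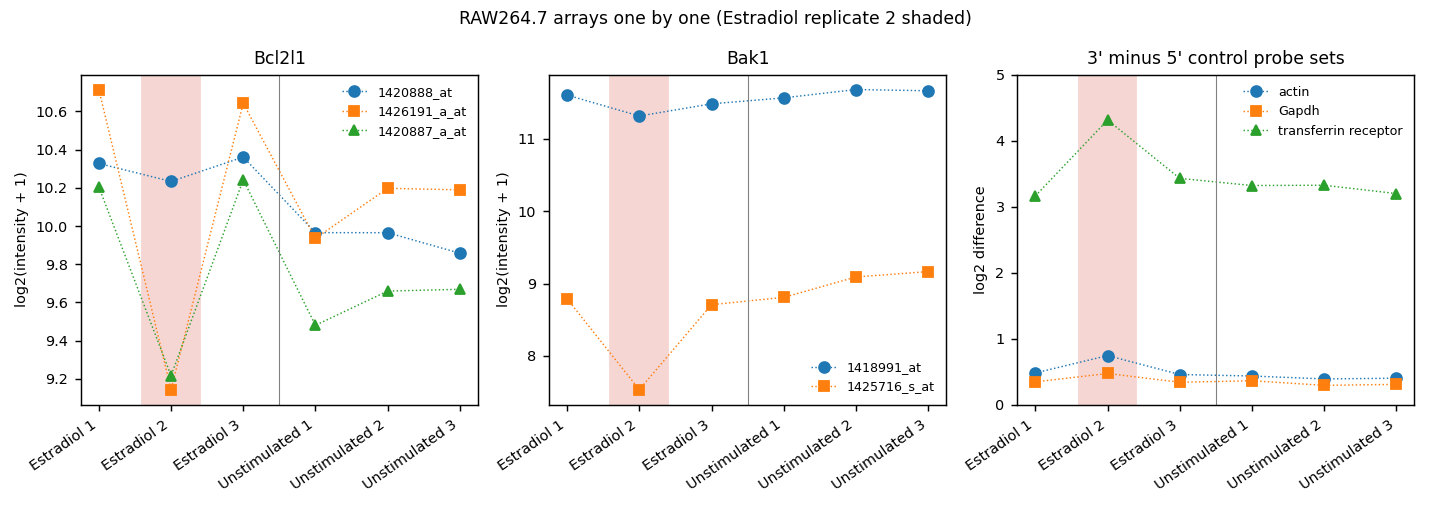
Log2 level per RAW264.7 array of 3 Bcl2l1 and 2 Bak1 probe sets, and the 3′ minus 5′ log2 difference of the control transcripts, each point being 1 array, with Estradiol replicate 2 shaded. Both 1426191_a_at and 1420887_a_at of Bcl2l1 and 1425716_s_at of Bak1 are lowest on the shaded array, at 9.14, 9.22 and 7.53, and 1420888_at is not set apart there (10.23).

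Mcl1, whose protein is short-lived and restrains BAK and BIM, was bright on every array. The brightest probe set, 1416880_at, read 13.44, 13.45 and 13.40 in Estradiol cells, against 13.34, 13.31 and 13.36 in Unstimulated cells. On 5 of its 6 probe sets every Estradiol array was above every Unstimulated array. The differences were small, from -0.01 to 0.18, and none was called. The largest was that of 1456381_x_at, which read 13.05, 13.11 and 13.00 in Estradiol cells and 12.87, 12.86 and 12.88 in Unstimulated cells (0.18 ± 0.05, limma adjusted p = 0.0772). Its adjusted p was 0.0343 when dim probe sets were left out and 0.0108 with an intensity-dependent robust prior, so the call depends on the setting. With that prior in limma, Mcl1 1448503_at (0.13 ± 0.03, adjusted p = 0.0186) and 1437527_x_at (0.12 ± 0.03, adjusted p = 0.0361) were also called. Non-overlap of the groups was common over the array, where 17.5% of probe sets had all Estradiol arrays above and 15.5% below, 33.0% in all.

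Bcl2l2, a pro-survival relative of BCL-XL, and Bcl2, the founding member, had no called change. Bcl2l2 1423572_at read 10.97, 10.67 and 10.78 in Estradiol cells, against 10.75, 10.76 and 10.66 in Unstimulated cells (0.08 ± 0.08, limma adjusted p = 0.601; 0.15 ± 0.07 without Estradiol replicate 2). Bcl2 1422938_at read 8.13, 7.72 and 8.13 in Estradiol cells, against 8.05, 8.15 and 7.81 in Unstimulated cells (-0.01 ± 0.14, adjusted p = 0.983; 0.13 ± 0.11 without Estradiol replicate 2). The groups overlapped on both. The interval for Bcl2 spans -0.34 to 0.33, so changes of that size were not detectable.

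On the pro-death side 0 of 11 probe sets were called with estradiol in limma, and 4 had an unadjusted p under 0.05, as did 5652 of all 22626 probe sets. Bcl2l11 encodes BIM, the BH3-only protein that binds all the pro-survival relatives. Its brightest probe set, 1435448_at, read 11.69, 11.50 and 11.67 in Estradiol cells, against 11.53, 11.45 and 11.60 in Unstimulated cells (0.10 ± 0.07, limma adjusted p = 0.452; 0.16 ± 0.06 without Estradiol replicate 2). The 5 Bcl2l11 probe sets disagreed in sign. Of these, 4 lay between 0.10 and 0.23, whereas 1456006_at, near the dim mark, was at -0.26 ± 0.10 (adjusted p = 0.167), with every Estradiol array below every Unstimulated array. Without Estradiol replicate 2, 1435449_at was called at 0.25 ± 0.05 (adjusted p = 0.0386), and without Estradiol replicate 1, 1456006_at was called at -0.35 ± 0.07 (adjusted p = 0.0432).

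Bid, which caspase-8 cleaves to link death receptors to mitochondria, read 12.07, 12.15 and 12.13 in Estradiol cells on 1417045_at, against 12.14, 12.21 and 12.18 in Unstimulated cells (-0.06 ± 0.05, limma adjusted p = 0.495). On 1448560_at Bid read 10.23, 9.70 and 10.14 in Estradiol cells, against 10.15, 10.32 and 10.38 in Unstimulated cells (-0.25 ± 0.15, adjusted p = 0.333), and the change was -0.09 ± 0.08 without Estradiol replicate 2, the low array. Bad, the sensitizer that survival kinases silence by phosphorylation, read 11.43, 11.58 and 11.53 in Estradiol cells on 1416582_a_at, against 11.57, 11.62 and 11.56 in Unstimulated cells (-0.07 ± 0.06, adjusted p = 0.525). These groups overlapped, while on the other Bad probe set, 1416583_at, all Estradiol arrays were lower (-0.13 ± 0.05, adjusted p = 0.171). Bak1, the pore former, read 11.61, 11.32 and 11.49 in Estradiol cells on 1418991_at, against 11.57, 11.68 and 11.67 in Unstimulated cells (-0.17 ± 0.08, adjusted p = 0.27; -0.09 ± 0.06 without Estradiol replicate 2). Its second probe set, 1425716_s_at, read 8.79, 7.53 and 8.71 in Estradiol cells, against 8.81, 9.09 and 9.17 in Unstimulated cells. The difference of -0.68 ± 0.33 (adjusted p = 0.26) was -0.27 ± 0.11 (adjusted p = 0.185) without Estradiol replicate 2.

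By side, the median change with estradiol was 0.078 over the 15 pro-survival probe sets and -0.066 over the 11 pro-death ones, with 0.006 over all probe sets. Without Estradiol replicate 2 these medians were 0.104 on the pro-survival side and -0.093 on the pro-death side. The groups did not overlap on 9 of the 26 member probe sets. The 6 of these that were higher with estradiol were all pro-survival (5 of Mcl1 and 1 of Bcl2l1), and the 3 that were lower were all pro-death (1 each of Bad, Bak1 and Bcl2l11). Bcl2l11 was not lower throughout. Its lower probe set, 1456006_at, was above the 40th percentile on only 2 of the 6 arrays compared. The other Bcl2l11 probe sets had positive changes, from 0.10 to 0.23. On Bak1 1425716_s_at the gap was narrow, with the highest Estradiol array at 8.79 and the lowest Unstimulated array at 8.81. On the brighter Bak1 and Bad probe sets, 1418991_at and 1416582_a_at, the groups overlapped. Probe sets of a gene are not independent, so these 9 stand for few genes. The share of 9 in 26 is near the 33.0% of all probe sets. By direction, 6 of 15 pro-survival probe sets were higher and 3 of 11 pro-death ones lower. Over all probe sets 17.5% were higher without overlap and 15.5% lower. Whether the sides differ was not tested.

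**Figure D2:**
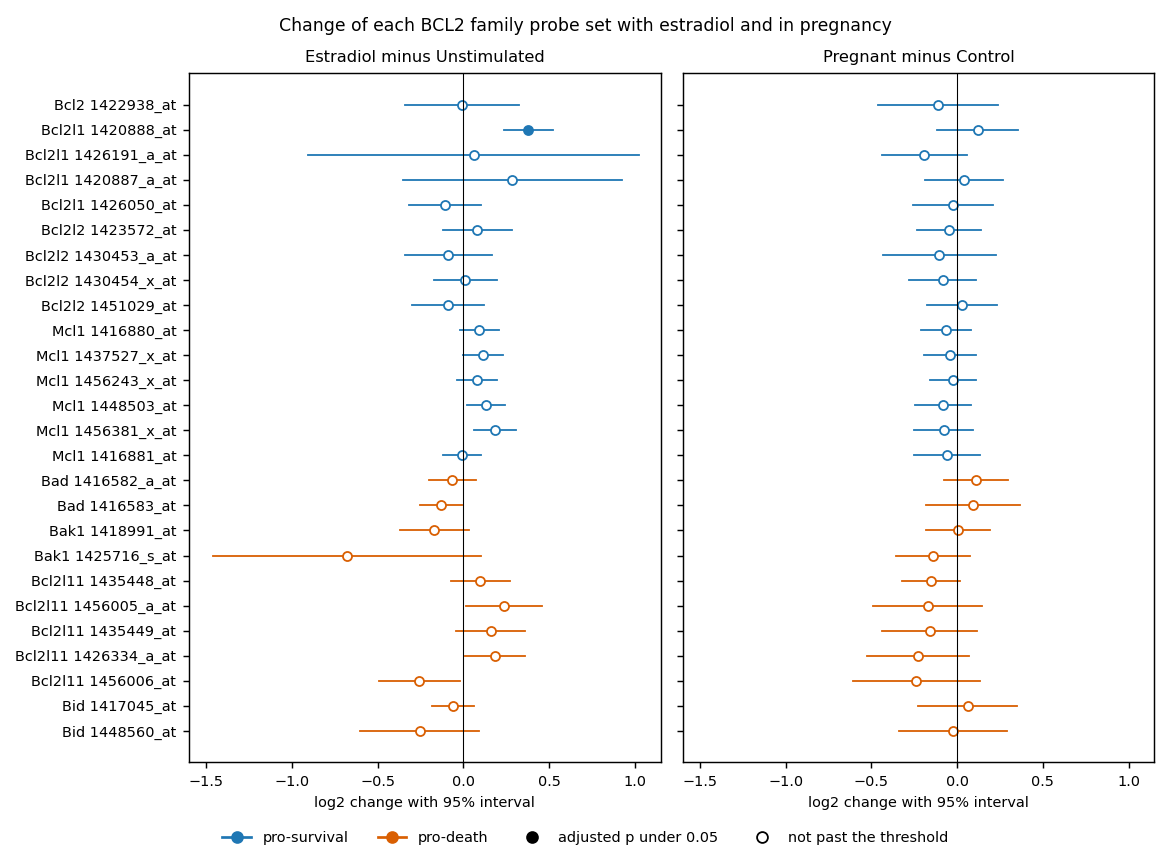
Log2 change of each of the 26 member probe sets, Estradiol minus Unstimulated and Pregnant minus Control, as points with 95% intervals, filled where called at a limma adjusted p under 0.05. The only filled point is Bcl2l1 1420888_at with estradiol (0.38), and every interval for pregnancy lies within -0.61 to 0.37.

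Other genes of the death pathway, each by its brightest probe set, changed in both directions with estradiol. Over all 12393 genes 5.82% rose and 4.06% fell, 9.88% in all, and the median change was 0.017. Of 10 measured genes among 14 other BCL2 family members, 1 rose and 1 fell (median 0.019). Pmaip1, encoding the MCL1-binding BH3-only protein NOXA, rose by 0.53 ± 0.09 (limma adjusted p = 0.0138), and its adjusted p was 0.0575 to 0.0649 without each Unstimulated array or without Estradiol replicate 3. Bnip3, encoding a BH3-containing mitochondrial protein of mitophagy, fell by 0.55 ± 0.07 (adjusted p = 0.0059). Bnip3 is the close relative of Bnip3l.

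Of 16 measured genes among 18 of the apoptosome, caspases and inhibitors, 3 rose and 1 fell (median 0.041). Dffb, the caspase-activated nuclease, was at 0.46 ± 0.05 (limma adjusted p = 0.00309), although its other probe set was at 0.00. Birc3, an inhibitor of apoptosis protein and NF-kB target, was at 0.38 ± 0.05 (adjusted p = 0.00606). The executioner caspase gene Casp6 was at 0.23 ± 0.05 (adjusted p = 0.0279), and the mitochondrial protease gene Htra2 at -0.20 ± 0.05 (adjusted p = 0.0413). The calls of Casp6 and Htra2 ended in 5 of 6 fits that left out an array, with adjusted p up to 0.123 and 0.148.

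Of 25 measured genes among 27 regulators of the member proteins, 3 rose and 0 fell (median 0.016), and 5 had an unadjusted p under 0.05 in limma, as did 25.8% of all genes. Pim1, a kinase that phosphorylates BAD, was at 0.50 ± 0.08 (limma adjusted p = 0.0143). The forkhead factors Foxo3 and Foxo1, which can drive Bcl2l11 transcription, were at 0.29 ± 0.05 (adjusted p = 0.0203) and 0.34 ± 0.08 (adjusted p = 0.043). Other probe sets of Pim1 and Foxo1 gave as little as 0.03 and 0.05. The Pim1 and Foxo3 calls ended in 4 of 6 fits that left out an array and that of Foxo1 in 5 of 6, with adjusted p up to 0.0709, 0.0928 and 0.151. Without Estradiol replicate 2, Foxo1 was the only one of the 9 named list genes to lose its call (adjusted p = 0.0674).

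Pregnancy was accompanied by no called change of any member in lavage macrophages. In limma 0 of 26 probe sets were called and 0 had an unadjusted p under 0.05, where 0% of all 22626 probe sets were called and 2236 (9.88%) had an unadjusted p under 0.05. The changes ran from -0.24 to 0.12, and the median was -0.058 on the pro-survival side, -0.142 on the pro-death side and 0.015 over all probe sets. Every 95% interval, each taken singly, lay between -0.61 and 0.37. These intervals rest on the spread among the arrays at hand, which may be technical, and do not bound all 26 changes jointly.

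Among pro-survival members, Mcl1 1416880_at read 13.48, 13.44 and 13.48 in Pregnant lavage, against 13.47, 13.56 and 13.55 in Control lavage (-0.06 ± 0.06, limma adjusted p = 0.745). Bcl2l1 1420888_at read 9.82, 10.13 and 9.84 in Pregnant lavage, against 9.79, 9.77 and 9.87 in Control lavage (0.12 ± 0.10, adjusted p = 0.703). Bcl2l2 1423572_at read 10.81, 10.67 and 10.91 in Pregnant lavage, against 10.87, 10.84 and 10.83 in Control lavage (-0.05 ± 0.08, adjusted p = 0.862). The groups overlapped for all of these. Pregnant replicate 2, the lavage array with the highest transferrin receptor 3′ minus 5′ difference (3.86, against 2.83 to 3.47 on the others), was the high Pregnant array for Bcl2l1 and the low one for Bcl2l2. Bcl2 1422938_at was below the 40th percentile on every lavage array, at 6.17, 6.23 and 6.33 in Pregnant lavage and 6.68, 6.13 and 6.25 in Control lavage.

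Among pro-death members, all 5 Bcl2l11 probe sets had lower means in Pregnant lavage, by -0.15 to -0.24, with limma adjusted p from 0.541 to 0.69. Bcl2l11 1435448_at read 12.62, 12.54 and 12.55 in Pregnant lavage, against 12.81, 12.63 and 12.73 in Control lavage (-0.15 ± 0.07, adjusted p = 0.541). All Pregnant arrays were below all Control arrays on this probe set and on 1426334_a_at, though by a narrow gap. Bid 1417045_at read 8.30, 8.43 and 8.11 in Pregnant lavage, against 8.32, 8.32 and 8.02 in Control lavage (0.06 ± 0.12, adjusted p = 0.895). Bad 1416582_a_at read 11.55, 11.56 and 11.73 in Pregnant lavage, against 11.43, 11.57 and 11.51 in Control lavage (0.11 ± 0.08, adjusted p = 0.664). Bak1 1418991_at read 11.43, 11.63 and 11.44 in Pregnant lavage, against 11.54, 11.50 and 11.45 in Control lavage (0.00 ± 0.08, adjusted p = 0.992). The groups overlapped for Bid, Bad and Bak1.

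Counting both sides, the lavage groups did not overlap on 3 of 26 probe sets, all lower in Pregnant lavage (2 of Bcl2l11 and Mcl1 1448503_at). Over all probe sets 15.8% did not overlap, 9.05% with Pregnant lavage higher and 6.79% lower. None of the other death-pathway lists had a called gene with pregnancy in limma: 0 of 10 other family members, 0 of 16 apoptosome genes and 0 of 25 regulators, of which 3, 1 and 2 had an unadjusted p under 0.05, as did 9.04% of all genes. Their median changes were 0.061, -0.028 and -0.008, with 0.03 over all genes.

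The pregnancy change minus the estradiol change was also tested, on all 12 arrays, and was called for 0 of the 26 member probe sets in limma, where 3.15% of all probe sets were called. An unadjusted p under 0.05 was found for 7 of the 26 and for 17.8% of all probe sets. The smallest adjusted p was that of Mcl1 1456381_x_at, where the pregnancy change was -0.08 and the estradiol change 0.18, a difference of -0.26 ± 0.08 (adjusted p = 0.125). With an intensity-dependent robust prior in limma this Mcl1 difference was called (adjusted p = 0.04), so it too depends on the setting. For Bcl2l1 1420888_at the pregnancy change was 0.12 and the estradiol change 0.38, a difference of -0.26 ± 0.12 (adjusted p = 0.284). With array weights, which gave Estradiol replicate 3 a weight of 10.7, this difference was called at -0.38 ± 0.09 (adjusted p = 0.0254), so whether the Bcl2l1 change differs between the cell line and lavage depends on the setting. Of the 5 Bcl2l11 probe sets, 4 were lower with pregnancy and higher with estradiol, with differences from -0.25 to -0.41 and adjusted p from 0.186 to 0.3. Without Estradiol replicate 2 the difference was called for Bcl2l1 1426191_a_at (-0.76 ± 0.15, adjusted p = 0.0287) and 1420887_a_at (-0.58 ± 0.13, adjusted p = 0.0422).

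The largest differences in the set were between lavage cells and the cell line. In Control lavage against Unstimulated RAW264.7 cells, 18 of 26 member probe sets were called, 8 higher and 10 lower, where 61.1% of all probe sets were called, 26.4% higher and 34.8% lower. The groups did not overlap on 21 of the 26 member probe sets, where 69.3% of all probe sets did not overlap. The pro-survival side had 4 higher and 6 lower and the pro-death side 4 higher and 4 lower. The Unstimulated arrays are shared with the estradiol comparison and the Control arrays with the pregnancy comparison. Source, culture and animal cannot be told apart in this comparison, and in such bulk samples fewer cells of a type and less RNA per cell cannot be told apart.

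Bid had the largest difference of the set. Probe set 1417045_at read 8.32, 8.32 and 8.02 in Control lavage, against 12.14, 12.21 and 12.18 in Unstimulated RAW264.7 cells. The difference was -3.96 ± 0.09, which is 15.6-fold lower (limma adjusted p = 2.1e-07). The second probe set, 1448560_at, was 11.7-fold lower (-3.55 ± 0.11, adjusted p = 6.8e-07) and was below the 40th percentile on every lavage array. Both probe sets thus had lavage groups far below both RAW264.7 groups, with Pregnant lavage at 8.28 ± 0.16 and Estradiol cells at 12.12 ± 0.05 on 1417045_at (SD, n = 3 each).

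Bcl2l11 went the other way on 4 of its 5 probe sets. Probe set 1435448_at read 12.81, 12.63 and 12.73 in Control lavage, against 11.53, 11.45 and 11.60 in Unstimulated RAW264.7 cells (1.20 ± 0.07, 2.29-fold higher, limma adjusted p = 1.1e-05). Probe sets 1456005_a_at, 1435449_at and 1456006_at were 2.42-, 2.28- and 1.76-fold higher. The fifth, 1426334_a_at, read 8.23, 7.83 and 7.83 in Control lavage, against 8.41, 8.34 and 8.28 in Unstimulated cells, a difference of -0.38 ± 0.12 (adjusted p = 0.0299). Its call ended in 5 of 6 fits that left out an array. The BIM gene makes several spliced transcripts, and which of them each probe set reads was not analysed here.

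**Figure D3:**
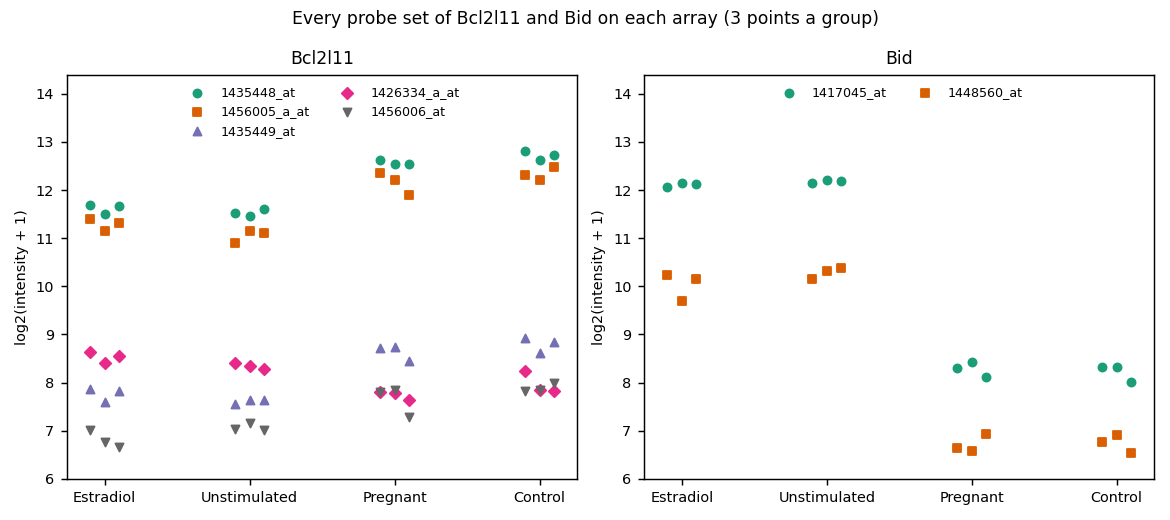
Log2 level of every Bcl2l11 and Bid probe set on each of the 12 arrays, by group. Both Bid probe sets are lower in the lavage groups (1417045_at at 8.22 in Control lavage and 12.18 in Unstimulated cells), and 4 of 5 Bcl2l11 probe sets are higher there, with 1426334_a_at lower.

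Bcl2 had the largest difference between the sources on the pro-survival side. It read 6.68, 6.13 and 6.25 in Control lavage, against 8.05, 8.15 and 7.81 in Unstimulated RAW264.7 cells (-1.65 ± 0.16, 3.14-fold lower, limma adjusted p = 0.000148). All Control values were below the 40th percentile of their arrays, so the lavage level is that of dim probe sets. Mcl1 was higher on 4 probe sets by 0.16 to 0.26 and lower on 1416881_at by a change of -0.31 ± 0.05 (adjusted p = 0.0017), and 1448503_at was at -0.10 and not called. Of Bcl2l1, 1426191_a_at and 1420887_a_at were lower (-0.42 ± 0.11 and -0.33 ± 0.09, adjusted p = 0.0161 and 0.0183), while 1420888_at was at -0.12 ± 0.06 (adjusted p = 0.11). Without Unstimulated replicate 2 or 3 these Bcl2l1 calls ended, with adjusted p between 0.0577 and 0.0649, and in a fit of all 12 arrays they were 0.288 and 0.222. The Mcl1 calls of 1437527_x_at and 1456243_x_at ended without either of Unstimulated replicates 2 and 3 or Control replicate 3, with adjusted p from 0.0517 to 0.0983, and that of 1416880_at without Unstimulated replicate 2 (adjusted p = 0.0608). The first of these also ended without Unstimulated replicate 1 (adjusted p = 0.0627). Bcl2l2 had 2 lower probe sets, 1430453_a_at at -0.58 ± 0.13 (adjusted p = 0.00937) and 1430454_x_at at -0.28 ± 0.08 (adjusted p = 0.0251; 0.063 to 0.0645 without Unstimulated replicate 3 or Control replicate 1 or 3), and its brightest was at 0.12 ± 0.05 (adjusted p = 0.0763). The 2 lower Bcl2l2 probe sets were near the 40th percentile in Control lavage, with means of 7.30 and 7.20.

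Of the remaining pro-death genes, Bak1 1425716_s_at was lower at -0.48 ± 0.12 (limma adjusted p = 0.011), and 1418991_at was at -0.14 ± 0.06 (adjusted p = 0.061). Bad was called on neither probe set (-0.08 ± 0.05 and -0.03 ± 0.05, adjusted p = 0.255 and 0.609). The call of 1425716_s_at ended when all 12 arrays entered the fit (adjusted p = 0.143). Bak1 1418991_at was called lower with dim probe sets left out (adjusted p = 0.0354), with the robust prior (0.0294) and with array weights (0.0343).

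**Figure D4:**
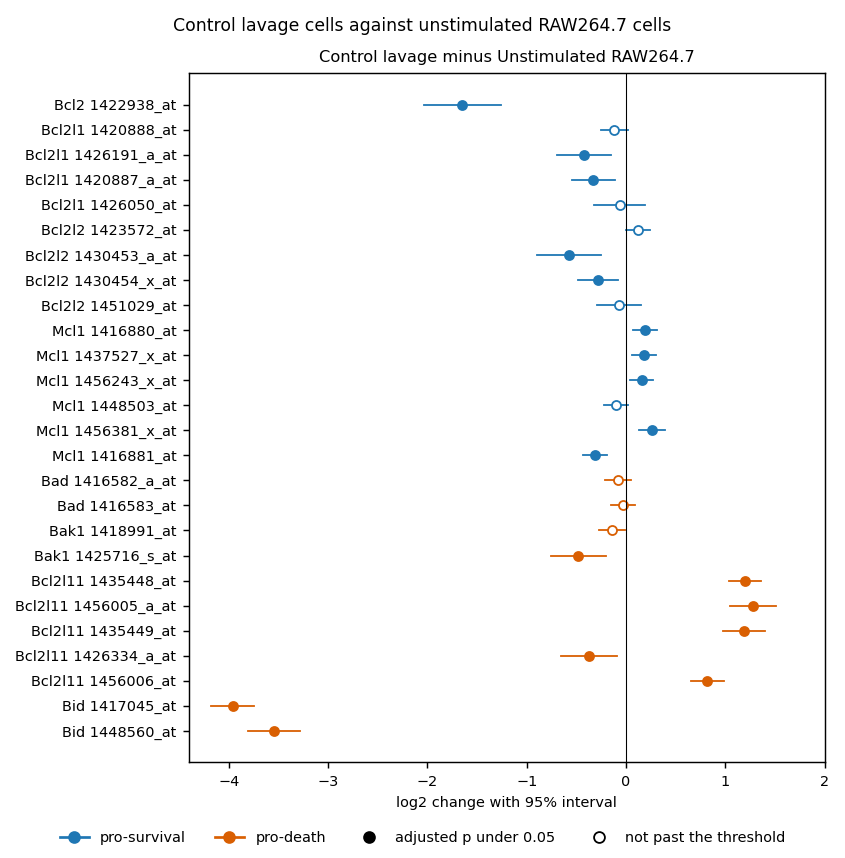
Log2 change of each member probe set, Control lavage minus Unstimulated RAW264.7, with 95% intervals, filled where called at a limma adjusted p under 0.05. Bid lies far to the left (-3.96 and -3.55), Bcl2 at -1.65 and 4 Bcl2l11 probe sets between 0.82 and 1.27.

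Markers of other cells also differed between the sources. The summed intensity of 12 airway and alveolar epithelial markers was 28249 to 43170 in Control lavage, against 496 to 589 in Unstimulated RAW264.7 cells, and 8 of the 12 were above the 40th percentile on all Control arrays, against 0 on Unstimulated ones. That of 9 measured neutrophil markers was 6096 to 20839 in Control lavage, against 487 to 536 in Unstimulated cells, with 4 and 1 markers above the percentile on every array. The sum of 12 T cell markers was 11683 to 12163 in Control lavage, against 2848 to 3395 in Unstimulated cells, with Cd2 above the percentile on every Control array and Cd28 on every Unstimulated array, and no other of the 12 in either group. The B cell sum was 6023 to 6350 in Control lavage, against 755 to 863 in Unstimulated cells. Cd22 (12.5 in Control lavage, 5.37 in Unstimulated cells) makes up most of this sum in lavage. Only 1 of the 9 measured B cell markers was above the percentile on every Control array. Ighm was lower in Control lavage (7.21) than in Unstimulated cells (9.01). The erythroid sum was 655 to 1336 in Control lavage, against 260 to 281 in Unstimulated cells. Between the lavage groups the epithelial sum was 32954 to 46005 in Pregnant lavage and 28249 to 43170 in Control lavage, and the neutrophil sum 6497 to 11508 in Pregnant lavage and 6096 to 20839 in Control lavage. The T cell sum was 10885 to 12262 in Pregnant lavage and 11683 to 12163 in Control lavage, the sum of 9 measured B cell markers 5820 to 6475 in Pregnant lavage and 6023 to 6350 in Control lavage, and that of 7 measured erythroid markers 758 to 3311 in Pregnant lavage and 655 to 1336 in Control lavage. These ranges overlapped, but Cd2 (13.39 in both groups) makes up most of the T cell sum and Cd22 (12.5 in both groups) most of the B cell sum. Several other T cell markers had lower means in Pregnant lavage. Cd3e was at 6.53 in Pregnant and 7.61 in Control lavage, and Cd3g at 5.88 in Pregnant and 7.26 in Control lavage. Cd247 was at 4.99 in Pregnant and 6.16 in Control lavage, and Thy1 at 5.76 in Pregnant and 6.87 in Control lavage. Cd8a (5.82 in Pregnant and 5.8 in Control lavage) and Zap70 (6.25 in Pregnant and 6.17 in Control lavage) went the other way. Apart from Cd3e and Cd3g in Control lavage, these means were below the range of 40th percentiles, 6.98 to 7.14. Most epithelial markers had higher means in Pregnant lavage. Sftpc was at 11.68 in Pregnant and 10.66 in Control lavage, and Epcam at 11.42 in Pregnant and 10.54 in Control lavage. Cdh1 (11.84 in Pregnant and 12.15 in Control lavage) and Scgb1a1 (12.98 in Pregnant and 13.02 in Control lavage) were lower. Of the 12 epithelial markers, 10 were above the percentile on every Pregnant array and 8 on every Control array. The marker differences were not tested. The part of these cells in the member results was not tested.

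The death-pathway lists also differed by source, over a background in which 61.4% of genes were called, 27.8% higher and 33.6% lower, and the median change was -0.068. Of 10 other BCL2 family members 3 were higher and 4 lower in Control lavage (median -0.101). Bbc3, encoding the BH3-only protein PUMA, was lower (-1.28 ± 0.06, limma adjusted p = 6.7e-06), as were Bnip3 (-0.96 ± 0.07), Pmaip1 (-0.67 ± 0.08) and Bcl2l13 (-0.22 ± 0.06). Bmf, a BH3-only gene, was higher by 1.04 ± 0.16 and Bok, a BAX-like gene, by 0.33 ± 0.08, both below the 40th percentile on every array compared. Of 16 apoptosome genes 6 were higher and 5 lower (median 0.058). Birc5, encoding the mitotic protein survivin, was at -1.68 ± 0.11 and Htra2 at -1.10 ± 0.04. Casp8, which cleaves BID, was at 0.72 ± 0.06. Birc2, Dffa and Cycs (cytochrome c) were at 0.56 ± 0.07, 0.55 ± 0.06 and -0.44 ± 0.07.

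Of 25 regulators of the member proteins 11 were higher and 7 lower in Control lavage (median 0.105). Foxo1 was at 1.35 ± 0.05 (limma adjusted p = 2.2e-06), with its other probe sets down to 0.21, and Map1lc3a, an autophagy protein, at 1.83 ± 0.10 (adjusted p = 8.0e-06). Usp9x, the enzyme that removes ubiquitin from MCL1, was at 0.53 ± 0.05, with its other probe sets from -0.19 to 0.86, and Btrc, a ubiquitin ligase component that can target MCL1 and BIM, at -0.80 ± 0.04. Pim2 was at -0.61 ± 0.06, and Dynll2, the dynein light chain that tethers BMF, at -0.54 ± 0.06.

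The order of the 4 group means, by the brightest probe set, was as follows. Bid was highest in Unstimulated (12.18) and Estradiol cells (12.12), which overlapped, then in Pregnant (8.28) and Control lavage (8.22), which overlapped. Bcl2l11 was highest in Control lavage (12.72), then Pregnant lavage (12.57), Estradiol (11.62) and Unstimulated cells (11.53), and only the last 2 overlapped. Mcl1 ran from Control (13.53) and Pregnant lavage (13.46) to Estradiol (13.43) and Unstimulated cells (13.34), where only the last step showed no overlap. Bcl2l1 was highest in Estradiol cells (10.31), above the range of the next group, Pregnant lavage (9.93), and the others overlapped their neighbours in the order. Bcl2 was highest in Unstimulated (8.004) and Estradiol cells (7.997), which overlapped, then in Control (6.35) and Pregnant lavage (6.24), which overlapped. For Bad, Bak1 and Bcl2l2 all neighbouring groups overlapped. Levels are compared within a probe set only, since probe sets of different genes bind with different strength.

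**Figure D5:**
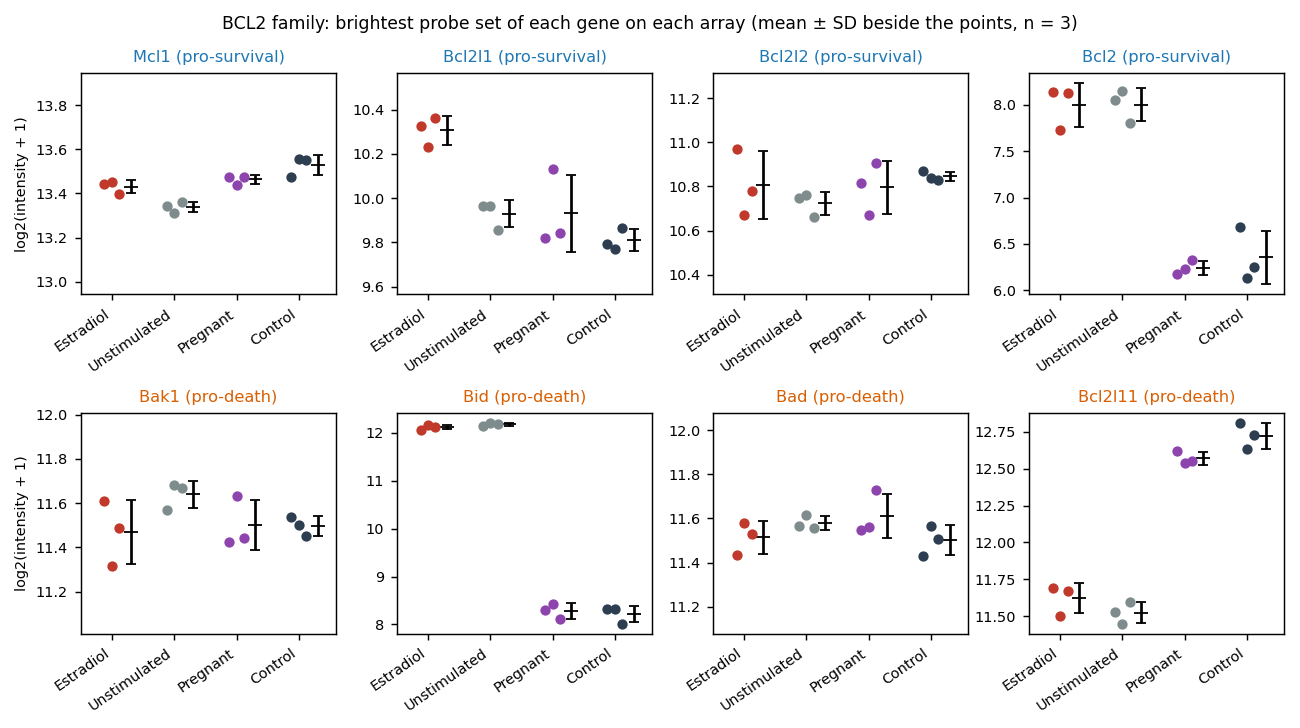
Log2 level of the brightest probe set of each of the 8 genes in the 4 groups, with points for arrays and bars for mean and SD (n = 3 each). Bid and Bcl2 are lower and Bcl2l11 higher in the lavage groups, and the Mcl1 groups lie within 13.31 to 13.56.

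The genes most like the brightest Mcl1 and Bcl2l11 probe sets were found by Pearson correlation over the 12 arrays after the mean of each source was subtracted, so shared differences between treatments, arrays and their quality all contribute. For Mcl1 they were Zfp106 (r = 0.957), Zcchc7 (r = 0.939) and Cnot4 (r = 0.935). For Bcl2l11 they were Fryl (r = 0.935), 4931406C07Rik (r = 0.927) and Helb (r = 0.906). These are descriptions over few arrays that share 2 cell sources.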

How the data were processed

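RNA of 12 mouse samples was measured on Affymetrix arrays. The deposited values are linear intensities of probe sets, between 6.51 and 28506, made by the authors with RMA, per the submitters' processing notes (version and build are not given in the sources used here). RMA usually yields log2 values, and log2(intensity + 1) was computed here from the deposited values. Of 22690 probe sets, 64 controls were left out. Of the 22626 tested, 20380 carry 1 gene symbol in the platform annotation, 691 several and 1555 none. No symbol was replaced, and 29 had no Entrez match. Where a gene list is described, the brightest probe set of a gene over the 12 arrays stands for it.

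Comparisons were fitted with limma 3.58.1 in R 4.3.3 (lmFit, eBayes, two-sided), on the 6 arrays compared or on all 12 for the difference of changes, with Benjamini-Hochberg adjustment over all 22626 probe sets. For the lists the adjusted p is that of the probe set in the same fit. The estradiol fit and the pregnancy fit were each tested on simulated data, and the other fits were not. Tables were made with Python 3.11.15, pandas 2.3.3, numpy 2.4.6, data.table (version 1.17.8) and matplotlib 3.10.9. All member probe sets are described, with arrays' values for those called with estradiol or pregnancy and for the brightest of each gene, and others added after their values were seen. Up to 6 called genes a list and comparison are named by smallest p. For likeness, the 3 genes with the highest correlation are named. Members and lists were chosen with earlier results of these data known. Further listed genes, among them Bax, Bcl2a1a, Bcl2a1b, Bcl2a1d, Rps6ka1 and Trp53, are not analysed here. The number of arrays limits the precision.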

Additional observations from a re-analysis of the deposited data

How the results depend on the processing

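No result changed direction while called. With estradiol 1 member probe set was called as reported, 2 with dim probe sets left out, 4 with the robust prior, 10 with array weights, 0 at an adjusted p under 0.01, and 0 to 4 with an array left out. The array weights did not converge there (11.2 for Estradiol replicate 3 and 0.194 for Estradiol replicate 2). Over all probe sets 2098 were called, 8297 with weights, 696 at 0.01 and 801 to 2649 with an array left out. For pregnancy 0 members were called under every alternative, and 39 of all probe sets with all 12 arrays in the fit, 0 to 1 with an array left out. For the difference of changes members went to 1 with the robust prior, 1 with weights and 0 to 2 with an array left out, and all probe sets, 712 as reported, to 2195 with weights, 194 at 0.01 and 343 to 768 with an array left out. For lavage against the cell line 18 members were called, 10 at 0.01, 4 of the 8 tested with 1 probe set a gene and 12 to 17 with an array left out. Of all 22626 probe sets 13832 were called there, and 12121 to 13733 with an array left out. With 1 probe set a gene, 7671 of the 12393 tested were called. Of single member values under alternatives, 331 of 369, 344 of 368, 482 of 500 and 330 of 370 kept their call and side. No paired analysis was possible because replicate numbers follow deposit order only. Signal near the 40th percentile limits Bcl2 and the second Bid probe set in lavage. It also limits Bcl2l2 1430453_a_at and 1430454_x_at in Control lavage (means 7.30 and 7.20), each above the percentile on 2 of 3 arrays. The same holds for Bcl2l11 1456006_at in Unstimulated cells (mean 7.07, above it on 2 of 3 arrays).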
